A study of Mus musculus with 2 samples.

Results

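Genes for splicing factors and neuronal RNA-binding proteins were described in the cerebellar granule cell layer of the mouse, which is filled mostly by small glutamatergic granule neurons. The members were all genes whose only platform symbol began with Rbfox, Elavl, Celf, Nova, Ptbp, Srsf, Mbnl or Khdrbs followed by a digit, or with Hnrnp. This gave 53 of the 18194 genes named on the array, measured by 169 of its 45101 probe sets. The families held 3 Rbfox, 4 Elavl, 6 Celf, 2 Nova, 3 Ptbp, 3 Mbnl, 3 Khdrbs, 10 Srsf and 19 Hnrnp genes. Both samples came from intact male C57BL/6J mice of 8 weeks. The layer was cut by laser capture from 12 μm sagittal cryosections, and labelled target for Affymetrix arrays was made from roughly 1 ng of total RNA in a protocol with a second amplification cycle. Both titles name animal 1, so the 2 samples may be technical replicates, and their spread may be smaller than that of separate mice. They form 1 group, so the values are described without any test. Purkinje cells, which the design text also names, were not analysed here.

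Splicing removes introns from transcripts, and RNA-binding proteins decide which exons are kept. SR proteins, the Srsf genes, mostly promote the use of an exon, while many heterogeneous nuclear ribonucleoproteins (hnRNPs) and the polypyrimidine tract-binding proteins mostly repress it. The Rbfox, Nova, Elavl and Celf proteins set exon choice, stability or translation of neuronal transcripts, and Rbfox3 is the antigen NeuN by which most neurons are recognised. Developing neurons lose Ptbp1 and gain Ptbp2, and mature neurons use Mbnl and Rbfox proteins for adult exon patterns.

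Most members gave signal above background. A gene was taken at its brightest probe set. It was called above background when its intensity exceeded, in each sample, the 95th percentile of 74 measured genes typical of other organs, 21.0 in sample 1 and 31.1 in sample 2. By this rule 42 of the 53 members (79.2%) were above background in both samples, against 37.1% of all named genes. A gene with more probe sets has more chances to pass at its brightest. The 53 members had 169 probe sets and the 18194 named genes 34958, and these numbers were not matched. The hnRNP and SR protein genes were above background in 27 of 29 cases, and the other families in 15 of 24. The count was 37, against 22.1% of all genes, with the 99th percentile as threshold, and 46, against 52.5%, with olfactory receptor genes as background. These were the lowest and highest of the alternatives run. The members below threshold in both samples were Rbfox2, Celf3, Celf6, Nova2, Ptbp3, Mbnl3, Khdrbs2, Khdrbs3, Srsf12 and Hnrnpl, and Ptbp1 passed in sample 1 only. At the lower thresholds for single probe sets, 13.2 in sample 1 and 18.9 in sample 2, the brightest probe sets of Ptbp1, Ptbp3 and Hnrnpl were above background in both samples. A signal below the threshold does not show that a transcript was absent. Intensities of different probe sets depend on their probes, so the values below are not read as relative amounts of different transcripts.

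**Figure D1:**
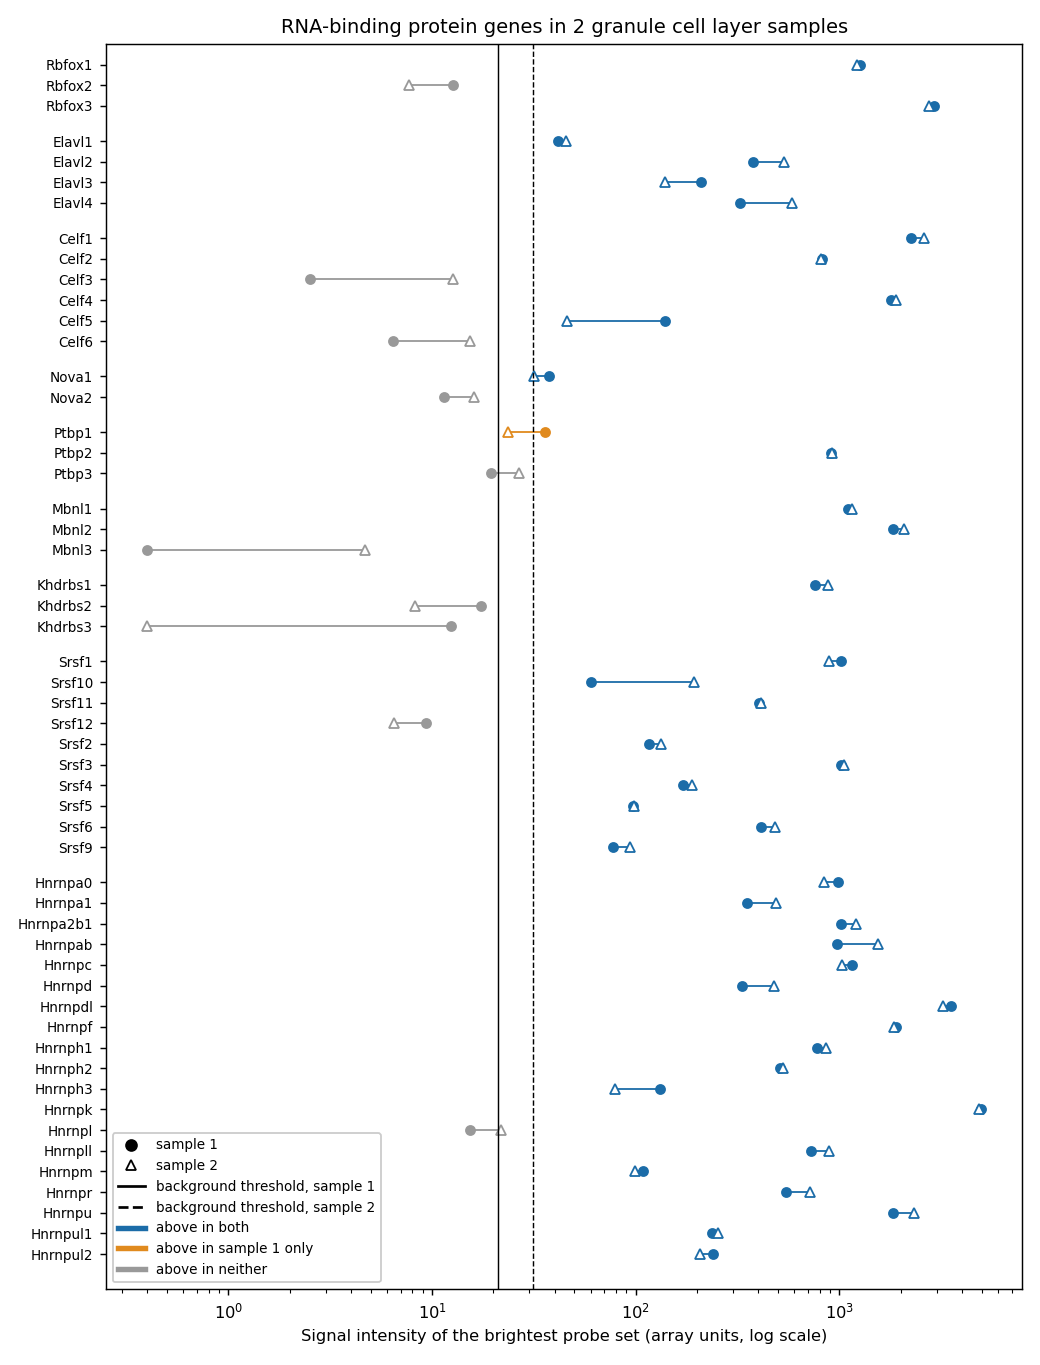
Signal intensity (log axis, array units) of the brightest probe set of each of the 53 genes, with sample 1 as a filled circle and sample 2 as an open triangle, and vertical lines at the background thresholds of 21.0 and 31.1. Of the genes, 42 lie right of both lines, Ptbp1 passes in sample 1 only, and the longest connecting lines among genes above background are those of Celf5 and Srsf10.

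Of the Rbfox genes, which bind the element UGCAUG, Rbfox1 and Rbfox3 were above background and Rbfox2 was not. Rbfox3 measured 2917 in sample 1 and 2769 in sample 2. Its other 2 probe sets had 235 and 211, and 79.4 and 80.7. Each of the 3 probe sets thus differed little between the samples. Rbfox1, the family member best known for neuronal and muscle exons, had 1264 in sample 1 and 1217 in sample 2. A second probe set of Rbfox1 gave 1033 and 1191, and its dimmest gave 15.9 and 31.9. All 4 probe sets of Rbfox2, a relative also active outside the nervous system, lay between 0.7 and 12.7. No Rbfox2 probe set was above the probe set thresholds either.

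The Ptbp genes encode repressors that bind pyrimidine-rich tracts, and Ptbp2 is the neuronal form. Ptbp2 measured 906 in sample 1 and 915 in sample 2, and its second probe set gave 148 and 111. Both of its probe sets were far above the thresholds in both samples. Ptbp1, the form of progenitors and non-neuronal cells, had 36.0 in sample 1 and 23.7 in sample 2, above the gene threshold in sample 1 only. Its other 2 probe sets gave 9.8 and 7.3, and 2.4 and 0.4. Ptbp3 had 19.4 and 26.7, below the gene thresholds but above those for probe sets, as was the brightest probe set of Ptbp1, and its other 2 probe sets lay between 0.2 and 4.8. With the 90th percentile as threshold, or with olfactory receptor genes as background, all 3 Ptbp genes were above background. The ratio of Ptbp2 to Ptbp1 transcripts cannot be read from these values.

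Promoters of a gene with a clear signal, Rbfox3, and of the Ptbp1 and Ptbp2 pair are shown as RefSeq gives them, as the 250 bases before the annotated start. They are written 5′ to 3′ in the direction of the gene, with CG dinucleotides in capitals. The arrays did not measure these regions.
Rbfox3 promoter, chr11:118761042-118761291, minus strand, GRCm38.p6: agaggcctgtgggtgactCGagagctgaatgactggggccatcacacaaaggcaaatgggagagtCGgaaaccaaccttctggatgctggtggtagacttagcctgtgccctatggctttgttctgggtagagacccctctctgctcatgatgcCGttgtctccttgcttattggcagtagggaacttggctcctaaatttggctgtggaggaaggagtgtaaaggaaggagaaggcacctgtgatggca
Ptbp1 promoter, chr10:79854182-79854431, plus strand, GRCm38.p6: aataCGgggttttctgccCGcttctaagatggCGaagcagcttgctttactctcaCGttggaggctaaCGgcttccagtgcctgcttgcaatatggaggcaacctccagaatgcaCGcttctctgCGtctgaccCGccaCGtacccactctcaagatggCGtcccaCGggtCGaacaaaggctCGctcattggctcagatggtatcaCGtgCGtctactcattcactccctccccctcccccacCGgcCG
Ptbp2 promoter, chr3:119783389-119783638, minus strand, GRCm38.p6: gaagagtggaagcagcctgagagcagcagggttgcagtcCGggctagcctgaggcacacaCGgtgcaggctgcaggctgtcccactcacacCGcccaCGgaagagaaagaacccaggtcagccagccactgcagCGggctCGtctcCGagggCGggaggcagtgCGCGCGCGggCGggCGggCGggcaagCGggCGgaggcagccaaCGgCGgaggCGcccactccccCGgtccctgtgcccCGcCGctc
The Rbfox3 stretch held 3 CG dinucleotides, against 17 for Ptbp1 and 23 for Ptbp2, and its GC content was 52.8%, against 57.6% and 72.4%. The GC box, GGGCGG on either strand, was found 5 times in the Ptbp2 stretch, counted without overlap, and in neither of the others. Each GC box contains 1 of the marked dinucleotides.

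RefSeq listed a promoter for 46 of the 53 members, with 83 annotated starts (GRCm38.p6, 250 bases before to 50 after the start). A start was counted as CpG-rich when its GC content was at least 50% and its ratio of observed to expected CG dinucleotides at least 0.6. Of the 83 member starts 57 (68.7%) were CpG-rich, against 45.1% of all 21262 starts of 17491 protein-coding genes. At least 1 CpG-rich start was found for 40 of the 46 members (87.0%), against 48.3% of these genes, and the members had more starts per gene. Among members above background in both samples 50 of 68 starts (73.5%) were CpG-rich, and among the others 7 of 15 (46.7%). Counted by gene these were 33 of 38 and 7 of 8, so the comparison depended on the unit counted. The 6 members with no CpG-rich start were Rbfox1, Rbfox3, Mbnl2, Celf3, Hnrnpa1 and Hnrnph2. Hnrnpa1 and Hnrnph2 met the CG ratio, at 0.97 and 0.78, and missed only the GC content, at 48.3% and 49%. Of the 83 starts, 65.1% held a GC box, against 46.2% of all. The letters TATAAA, on either strand, were in 10.8% of member starts and 12.6% of all, and CCAAT, on either strand, in 50.6% and 38.2%. These matches describe the sequence only.

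All 4 Elavl genes, which encode the Hu proteins that bind AU-rich and U-rich stretches, were above background in both samples. Elavl2 (HuB) had 377 in sample 1 and 533 in sample 2. Elavl3 (HuC), a marker of neurons, had 208 and 139, and Elavl4 (HuD) had 326 and 583. The brightest probe sets of Elavl2 and Elavl4 were thus higher in sample 2 and that of Elavl3 in sample 1. Other probe sets of Elavl2 and Elavl4 went the other way, with 84.3 and 44.0 for Elavl2 and 371 and 217 for Elavl4. The ubiquitous Elavl1 (HuR) had 41.3 and 45.3. At the lower probe set thresholds 3 more of its 6 probe sets were above background in both samples, at 16.6 to 37.8. None of these 3 passed the gene thresholds in both samples. Elavl1 did not pass when its probe sets were averaged or when the 99th percentile set the threshold.

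Of the Celf genes, named for CUG repeat binding, Celf1, Celf2, Celf4 and Celf5 were above background. Celf1 had 2249 in sample 1 and 2607 in sample 2, Celf2 had 822 and 808, and Celf4, which binds many synaptic transcripts, had 1786 and 1894. The brightest probe sets of these 3 genes were close to equal in the samples. Some of their other probe sets differed more, with 284 and 404, and 243 and 162, for Celf2, and 151 and 82.9 for Celf4. Celf5 had 139 in sample 1 and 46.0 in sample 2. This was a log2 difference (sample 1 minus sample 2) of 1.59 from a single probe set, which did not pass in both samples when the 99th percentile set the threshold. Celf3, with 2.5 and 12.7, and Celf6, with 6.4 and 15.4, each had 1 probe set and were below the threshold. The probe sets of Celf1 ranged widely. A pair of its 5 probe sets gave 0.3 and 1.8, and 0.3 and 0.9, while the other 3 lay between 134 and 2607.

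The Nova genes, whose KH domain proteins bind YCAY clusters in neuronal transcripts, gave low signals. Nova1 had 37.4 in sample 1 and 31.7 in sample 2, the latter just over its threshold of 31.1, and its second probe set gave 0.5 and 1.7. Nova2 had 11.4 and 16, below both thresholds, with a second probe set at 0.7 and 2.4. Nova1 was not above background when the 99th percentile set the threshold, when its probe sets were averaged, or when probe sets of the _s_at and _x_at kind were left out. In the last case Nova1 lost no probe set, as both are of the plain _at kind, but the sample 2 threshold rose to 32.7. Nova2 was above background with the olfactory receptor genes as background.

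The muscleblind genes Mbnl1 and Mbnl2, which encode regulators of adult exon patterns, were above background and Mbnl3 was not. Mbnl1 had 1102 in sample 1 and 1157 in sample 2, and Mbnl2 had 1837 and 2074. Of the 3 probe sets of Mbnl1 only the brightest passed in both samples; of the 5 of Mbnl2, 3 did. The 3 probe sets of Mbnl3 lay between 0.4 and 4.7. Of the Khdrbs genes, which encode the STAR proteins Sam68, SLM1 and SLM2, only Khdrbs1 (Sam68) was above background, with 758 and 877. A second probe set of Khdrbs1 gave 337 and 820, a log2 difference of −1.29. Khdrbs2 (17.3 and 8.2) and Khdrbs3 (12.4 and 0.4) each had 1 probe set and were below the gene thresholds in both samples. At the lower probe set thresholds Khdrbs2 passed in sample 1 only.

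**Figure D2:**
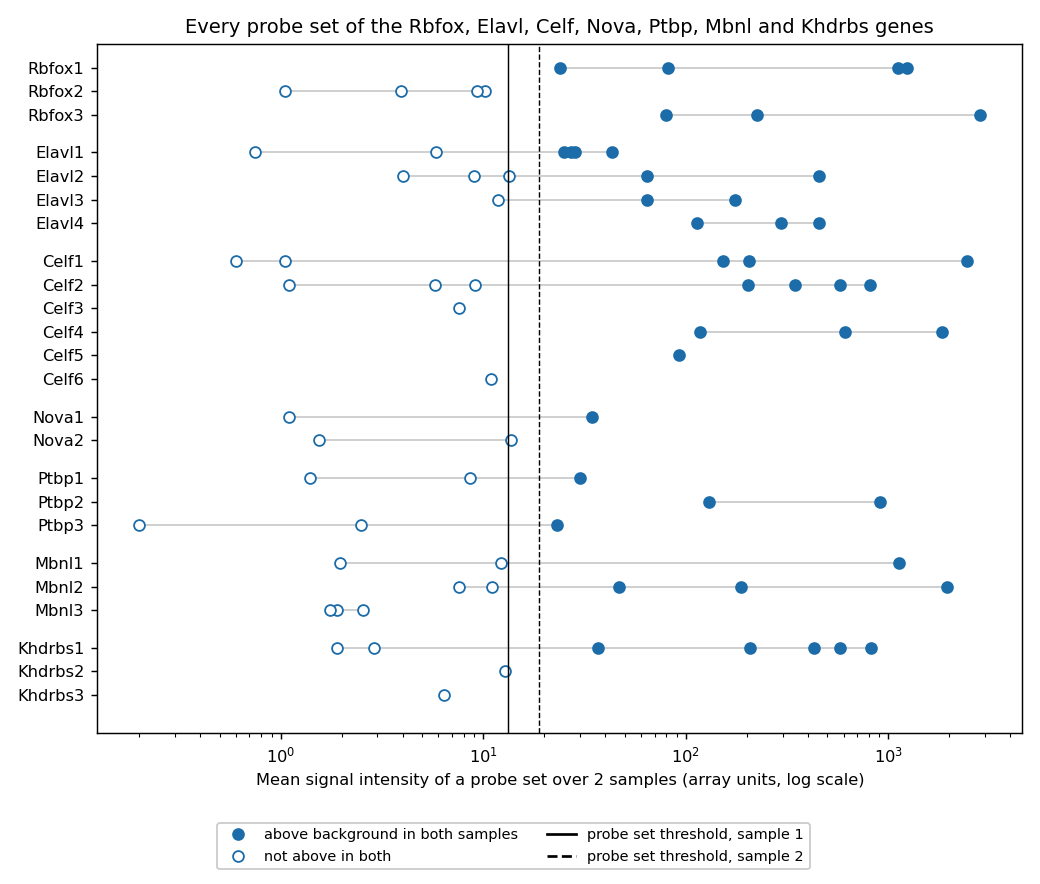
Mean intensity over both samples (log axis, array units) of each of the 78 probe sets of the 24 genes outside the Srsf and Hnrnp families, filled where above the probe set thresholds of 13.2 and 18.9 in both samples. The 4 Rbfox2 and 3 Mbnl3 probe sets all lie left of both lines, and the probe sets of Celf1, Celf2, Mbnl1 and Mbnl2 lie on both sides.

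Of the 10 SR protein genes 9 were above background in both samples, and 7 when the 99th percentile set the threshold, without Srsf9 and Srsf10. Srsf1 (SF2/ASF), which promotes exon inclusion, had 1023 in sample 1 and 892 in sample 2. Srsf3, the smallest SR protein, had 1016 and 1055, and Srsf6 had 412 and 483. Srsf11 had 403 and 410.3, Srsf4 had 170 and 189 and Srsf2 (SC35), a marker of nuclear speckles, had 116 and 132. Srsf2 did not pass when probe sets of the _s_at and _x_at kind were left out. Srsf5 (97.4 and 97.6) and Srsf9 (77.4 and 94.2) had 1 probe set each. Among the brightest probe sets of these 8 genes the widest gap was that of Srsf9, at 1.22-fold. Some of their other probe sets differed more, with 49.2 and 20.8 for Srsf1, and 24.6 and 48.8 for Srsf2. Srsf10, which represses splicing when it is dephosphorylated, had 60.1 and 193, a log2 difference of −1.68. Its second probe set above background went the other way, with 80.5 and 65.1, but 3 of its 4 probe sets were higher in sample 2. Their averages were 38.0 and 75.3, a difference of 1.98-fold. Srsf12 had 9.3 and 6.5 from 1 probe set and was below the threshold.

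Of the 19 Hnrnp genes 18 were above background in both samples. Hnrnpk, a KH domain protein that binds C-rich stretches, had 4945 in sample 1 and 4868 in sample 2, and Hnrnpdl had 3548 and 3226. Hnrnpf and Hnrnph1, which bind G-runs, had 1896 and 1864, and 779 and 856. The 2 Hnrnpf probe sets above background in both samples were of the _x_at kind. Its others gave 12.9 and 19.7, and 9.2 and 10.6. Hnrnpf did not pass when probe sets of the _s_at and _x_at kind were left out. Hnrnpu, the scaffold attachment factor, had 1828 and 2335. Hnrnpa2b1, which also sorts transcripts into granules for transport, had 1013 and 1204, and Hnrnpc, which binds U-rich stretches of nascent transcripts, had 1152 and 1025. Hnrnpa1, a repressor that counters SR proteins, had 354 and 487. Hnrnpab had 977 and 1546, the widest difference of the family after Hnrnph3 (131 and 78.8). Hnrnpa0, Hnrnpd, Hnrnph2, Hnrnpll, Hnrnpm, Hnrnpr, Hnrnpul1 and Hnrnpul2 lay between 99.5 and 979.9. Hnrnpl, a repressor that binds CA-rich stretches, had 15.3 and 21.9, below the gene thresholds but above those for probe sets, with a second probe set at 1.2 and 8.9. It was above background as a gene with the 90th percentile threshold or the olfactory receptor background. Hnrnpll, its near relative, had 724 and 886, and its second probe set 136 and 116. Transcripts of hnRNP genes have processed pseudogenes and close paralogs, so probe sets of this family may pick up more than 1 transcript.

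The members differed little between the samples. Of the 42 genes above background in both, 37 (88.1%) were within 1.5-fold, as were 71.8% of the 6753 such genes of the array, and the median fold between samples was 1.14, against 1.26. The members were also brighter, with a median intensity of 719 against 127. Among 43 members that passed in sample 1, sample 2 or both, 1 (Celf5, 2.33%) was at least 2-fold higher in sample 1, against 10.7% of all such genes. In sample 2, 1 member (Srsf10, 2.33%) was at least 2-fold higher, against 9.45% of all. Of single probe sets above background in at least 1 sample, 10 of 125 members (8.0%) were at least 2-fold higher in sample 1, against 14.4% of all, and 8 (6.4%) in sample 2, against 13%. The median log2 difference of genes was −0.07 over these 43 members, with 16 higher in sample 1 and 27 in sample 2, and −0.02 over all 8582 genes. This split depended on the scaling and was 21 and 22 after quantile normalization, and 22 and 21 after median scaling. With 1 sample on each side, neither difference has a replicate check. In tissue samples a lower signal from fewer cells of a type cannot be told apart from less RNA per cell.

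Within bands of intensity from 20 up, the members were near the array as a whole. Of member probe sets with a mean from 100 to 1000, 64 of 67 (95.5%) were within 2-fold, against 93.0% of all named probe sets. From 20 to 100 the shares were 75.0% of 32 and 70.7%. All 16 member probe sets of 1000 or more, and all 657 on the array, were within 2-fold. Under 20 the shares were 31.5% of 54 and 42.4%. Across the 114 member probe sets above background in both samples, log2 intensities of the arrays correlated with a Pearson's r of 0.960 (Spearman's rho 0.958), and these probe sets share genes and arrays.

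**Figure D3:**
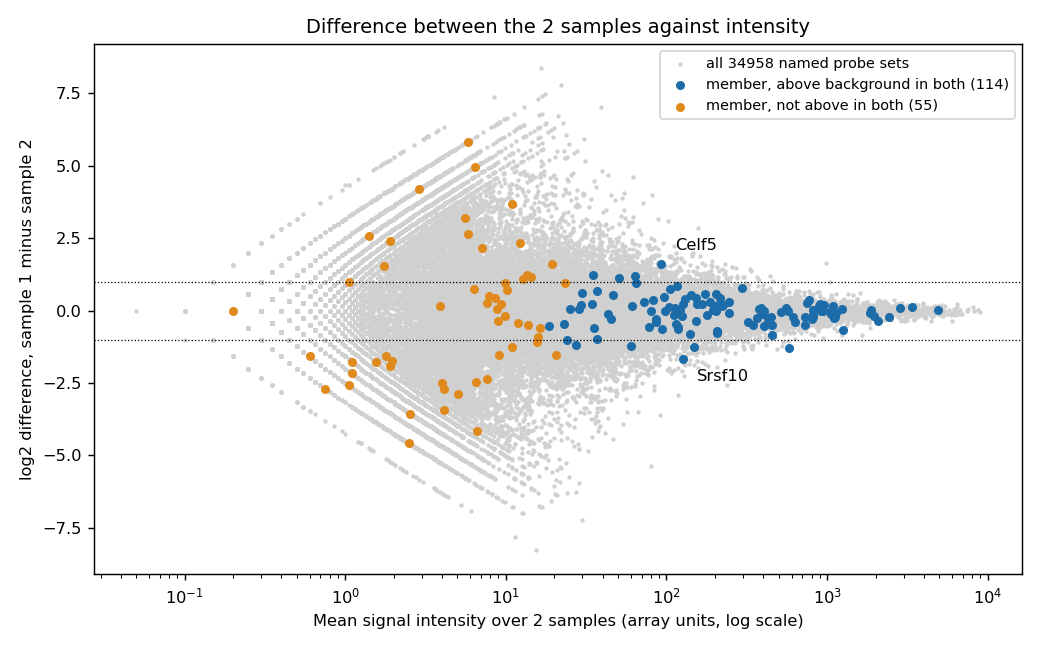
Log2 difference between the samples (sample 1 minus sample 2) against mean intensity (log axis, array units) for 34958 named probe sets (grey) and the 169 member probe sets (blue where above background in both samples, orange otherwise), with dotted lines at 2-fold. Member probe sets of 1000 or more lie within the lines, and the brightest probe sets of Celf5 and Srsf10 lie outside them.

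Probe sets of 1 gene often gave different answers. At the probe set thresholds 114 of 169 member probe sets (67.5%) were above background in both samples, against 34.5% of all named probe sets, and 44 were below in both. Of the 39 members with more than 1 probe set, 24 (61.5%) were split, with probe sets on both sides of the threshold, against 48.7% of all such genes. A further 12 had every probe set above, and Rbfox2, Nova2 and Mbnl3 had none. The share of split genes depends on how many probe sets a gene has, and this number was not matched. Of the 31 members with at least 2 probe sets above background, 24 (77.4%) had probe sets that differed between the samples in opposite directions, against 50.7% of 2742 such genes of the array. Some of these differences were near 0, as for Srsf11 (−0.03 and 0.07 on the log2 scale), and the share depends on how many probe sets a gene has. All 15 member probe sets of the _x_at kind, which can match several transcripts, were above background, against 50.8% of this kind on the array. For the plain _at kind the share was 64 of 105 (61.0%) against 30.8%. The _a_at kind had 25 of 34 (73.5%) against 41.9%, and the _s_at kind 10 of 15 (66.7%) against 53.6%.

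Control probe sets showed a gradient of signal along transcripts. The ratio of 3′ to 5′ signal for Gapdh was 10.1 in sample 1 and 10.4 in sample 2, and for Actb it was 29.0 and 37.9. Probe positions were not used here, and the part of this gradient in the disagreement between member probe sets was not tested.

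Genes of the wider splicing machinery were also mostly above background. Of 30 measured core spliceosome genes 27 passed in both samples. They included the branch point protein gene Sf1 (4376 and 3975), the helicase genes Ddx5 (2574 and 3013) and Dhx15 (2082 and 2037), and the U2 component Sf3b2 (1421 and 1616). Prpf4 (14.1 and 27.8) and the exon junction helicase gene Eif4a3 (4.5 and 0.6) were the lowest. At least 2-fold differences were seen for the 3′ splice site factor U2af1 (143 and 66.1), the exon junction gene Rbm8a (331 and 152) and the U2 component Sf3a3 (78.9 and 162). Of 20 genes for SR-related proteins and their kinases 16 passed, among them Luc7l3 (2940 and 3219), Rnps1 (1276 and 1601), Srrm2 (1099 and 1183) and Son (961 and 1023). Clk4 (9.4 and 15.8) and Srpk3 (9.3 and 29.8) did not. The SR protein kinase gene Clk1 was higher in sample 1 (617 and 302). The neuronal splicing activator genes Srrm3 (56.9 and 27.2) and Srrm4 (35.1 and 22.5) passed in sample 1 only.

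Of 40 other RNA-binding protein genes 27 passed (67.5%). These included Matr3 (4386 and 4621), Caprin1 (2223 and 1892), the FET family gene Ewsr1 (1197 and 1301) and the glial splicing regulator Qk (683 and 882). The epithelial splicing regulator Esrp1 (0.7 and 0.4) and the FET family gene Taf15 (0.3 and 3.8) were the lowest, and Rbms1 (25.9 and 63.5) was at least 2-fold higher in sample 2. The median log2 differences were 0.00 for the core spliceosome, −0.07 for SR-related genes and −0.13 for the others, against −0.02 over all genes.

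**Figure D4:**
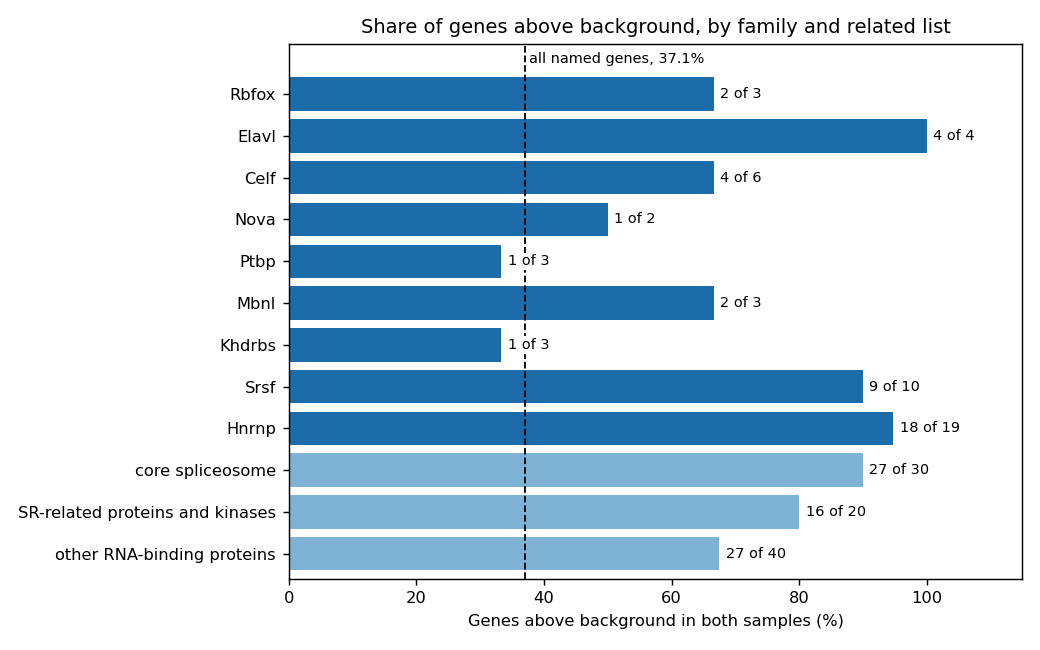
Share of measured genes above background in both samples (percent), for the 9 member families (dark bars) and 3 related lists (light bars), with the count beside each bar and a dashed line at the 37.1% of all named genes. The Ptbp and Khdrbs bars, of 3 genes each, end left of the line, and every other bar passes it.

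The layer holds other cells besides granule neurons, and several members are also made by glia. All 10 granule neuron markers were above background, with summed intensities of 34128 and 35853 in samples 1 and 2. So were 6 of 7 Purkinje cell markers (4048 and 4111), 5 of 7 of astrocytes and Bergmann glia (3936 and 3688) and 4 of 6 of oligodendrocytes (7965 and 7508). For GABAergic interneurons 3 of 5 passed (688 and 615), for endothelial cells 2 of 4 (849 and 868) and for microglia 3 of 5 (533 and 849). A few bright genes can carry a sum, as Plcb4 (1799 and 1887) and Aldoc (1550 and 1507) did for the Purkinje cell markers. The sums are therefore not compared between cell types. Markers of these cells lay on both sides of the thresholds. Pcp2 (159 and 177) and Calb1 (209.9 and 197) of Purkinje cells, Olig1 (328 and 375) of oligodendrocytes, Cldn5 (136 and 73.9) of endothelium and Csf1r (251 and 411) of microglia passed in both samples. Slc1a6 of Purkinje cells (4.4 and 8.4), Olig2 (2.9 and 5), Pecam1 (0.8 and 0.5) and Aif1 (0.3 and 4.2) were below the threshold. Which cells of the layer gave the signal of a member was not tested.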

How the data were processed

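Both samples were hybridised to 1 array each. The authors deposited linear signal intensities, 1 per probe set and array. GCOS, the Affymetrix operating software, is the tool named per the submitters' processing notes, and its version and scaling were not stated. The median intensity was 7.9 and 8.3, and values were used as deposited. The number of arrays limits the precision. Zeros (2 and 1 values, none of a member) were set to 0.1 before log2.

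Names came from the platform annotation, which gave 1 symbol for 34958, several for 932 and did not list 9211. Members were all named. From each related list the 4 highest and 2 lowest genes were named, with those above background in both samples and at least 2-fold apart, and cell type markers were summed; a few others are added as examples chosen after their values were seen. The members and lists were chosen with earlier results of these data known. Background came from 74 of 82 listed genes (108 probe sets), of which 3 exceeded the threshold in both samples. The calculation, in Python 3.11.15 with pandas 2.3.3, was tested on simulated arrays. Alternatives covered the threshold, background genes, normalization, probe set choice, filter and pseudocount. Protein sequences and probe sequences were not used here.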

Additional observations from a re-analysis of the deposited data

How the results depend on the processing

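With the 90th percentile threshold 3 Ptbp genes were above background and 3 members were at least 2-fold higher in sample 1. With olfactory receptor genes as background, 2 Nova and 3 Ptbp genes passed, and 3 members passed 2-fold toward each sample. At the 99th percentile threshold 0 Nova genes and 3 astrocyte and Bergmann glia genes passed. Without _s_at and _x_at probe sets 0 Nova genes passed, since the sample 2 threshold rose to 32.7 while Nova1 kept its probe sets. Hnrnpf and Srsf2 were lost too, and their brightest probe sets were of these kinds. When probe sets of a gene were averaged 0 Nova genes passed, and 0 members were at least 2-fold higher in sample 2, since Srsf10 was at 1.98-fold. With no background filter 3 members passed 2-fold toward sample 1 and 4 toward sample 2. Signals near the floor then enter, and under 20 only 42.4% of all named probe sets were within 2-fold. The shares of all named genes past 2-fold are not given for these settings, so these counts are not read as a trait of the members. Leaving out a sample gave 1 to 2 Ptbp genes. The cause was not tested. Of the other alternative values of counts and medians, 204 stayed within 1.5 times or within the spread, quantile normalization and median scaling included, although both evened the split of members between the samples, and of those of single genes 418 did and 57 did not. No paired analysis was possible because there was 1 group. Near the threshold signal over background limits each call.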

Other observations

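A set of 7 probe sets carried several symbols, at least 1 of them of the Hnrnp family, and was left out of the members by the rule. All 7 were above background in both samples. Those annotated to Hnrnpa3 and the predicted gene Gm6793 gave 1262 and 1541, 718 and 748, 632 and 679, and 74.3 and 211 in samples 1 and 2. The 3 annotated to Hnrnpa1 and related loci gave 49.4 to 107.

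The same held for several genes of the related lists, chosen after their values were seen. Of 16 probe sets that carried several symbols, at least 1 of them from these lists, 12 were above background in both samples. Snrpn, whose product SmN is the neuronal form of a core spliceosome protein, had 21.6 and 22.5 at its 1 probe set with a single symbol. Probe sets annotated to both Snurf and Snrpn, which lie on 1 transcript, gave 913 and 881, 802 and 628, 727 and 624, and 568 and 536, while another gave 24.1 and 17.3 and another 0.3 and 4.3. Eif4a3 had 4.5 and 0.6 at its single-symbol probe set, and 155 and 91 at a probe set shared with the predicted gene Gm5576.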
